A study of Mus musculus with 30 samples.

Results

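Keratins build the intermediate filaments of epithelial cells, and 8 of them mark the layers of the mammary duct. Krt5, Krt14, Krt15 and Krt17 are the basal keratins, and Krt7, Krt8, Krt18 and Krt19 are the luminal ones. These 8 genes were taken by name from a table of 11137 genes, which holds 11 keratin genes in all, and were followed through every library of the study. All 8 were in the table.

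The study sequenced sorted mammary cells from female mice of mixed background, in 30 libraries from 17 mouse numbers. K8imTmG control mice carry an allele that the labels write K8rta, a doxycycline-dependent activator under the Krt8 promoter, together with TETO CRE and the mTmG reporter, whose GFP Cre switches on. K8iΔRank mice carry the same alleles and RANK fl/fl, so that Cre deletes Rank in luminal cells while basal cells keep it. By the labels all mice, controls included, drank 1 mg/ml doxycycline from week 3 to week 8 of age. Glands were taken from virgins or from parous mice at day 30 of involution. By the study's methods dams nursed until their pups were taken away, but K8iΔRank dams had lost their first litter to lactation failure. In parous mice genotype and length of nursing therefore cannot be told apart. Luminal cells were sorted as CD24-high, CD49f-low and basal cells as CD24-low, CD49f-high, without leukocytes and endothelium, and luminal cells were gated on GFP. Luminal libraries numbered 3 virgin K8imTmG, 3 virgin K8iΔRank, 5 parous K8imTmG and 4 parous K8iΔRank, and basal libraries numbered 3, 4, 4 and 4 in the same order.

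Keratin filaments are obligate pairs of an acidic type I and a neutral to basic type II chain, and an unpaired chain is usually degraded. Krt5 pairs with Krt14 in basal and myoepithelial cells, with Krt15 and Krt17 as further type I partners, and Krt8 pairs with Krt18 or Krt19 in simple epithelia such as the luminal layer, where Krt7 is a second type II chain. Krt15 is known from stem cells of the hair follicle, and Krt17 from stressed or wounded epithelium. In the embryonic mammary gland the basal and luminal keratins are found in the same cells, and the layers part later.

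The genes lie in the mouse keratin clusters. In GRCm39 (GENCODE vM39) the type I genes Krt15 (chr11:100022584-100026775), Krt19 (chr11:100031636-100039491), Krt14 (chr11:100093988-100098490) and Krt17 (chr11:100147040-100151974) all lie on the minus strand within 129391 bases, so the luminal Krt19 sits 4860 bases from the basal Krt15. The type II genes Krt7 (chr15:101308924-101328194, plus strand), Krt5 (chr15:101615505-101621346, minus) and Krt8 (chr15:101905133-101912917, minus) share a second cluster with Krt18 (chr15:101936615-101940462, plus), a type I gene that lies 23697 bases beyond Krt8. The library kit reads the 3′ end of each mRNA. The 30-base words in the last 500 bases of each keratin's longest coding transcript were therefore looked up in transcripts of other genes. Of these words 17.6% were shared for Krt14, most often with Krt17, and 17.6% for Krt17, most often with Krt14. The share was 22.1% for Krt7, mostly in words found in many genes, 11.3% for Krt18, 1.49% for Krt19, and 0 for Krt5, Krt8 and Krt15. How reads in these words were counted was not tested.

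Start-site sequence from RefSeq (GRCm38.p6) was at hand for 5 of the 8 genes. The 30 bases from 40 to 11 before the start site, where a TATA box would lie, are shown on the gene's own strand because they include both partner pairs, Krt5 with Krt14 and Krt8 with Krt18, and capitals mark TATAA.
Krt5 (chr15:101712916-101712945): cttctaaggggataaaaggggacctcaaat
Krt14 (chr11:100206041-100206070): ataaggctgctctgtactgagaggaggatc
Krt7 (chr15:101412363-101412392): tgtgtgcgctcagcctccgccccgcatgga
Krt8 (chr15:102004353-102004382): agaggcccttttccctcccctggggctggc
Krt18 (chr15:102028176-102028205): ccctacctcctcccgcggcgaTATAAcaac
Krt18 alone of the 5 held TATAA on either strand in this window, as did 4.75% of 32851 promoter entries. The Sp1-type motif GGGCGG, searched on both strands over 250 bases before and 50 after the start site, was found 4 times at Krt7 and not at the other 4 genes, against 35.7% of all entries with a match. A match or its absence describes these letters and nothing about a factor.

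Values are normalized counts, which are reads divided by a size factor for each library, and every difference is on the log2(normalized count + 1) scale from limma. A gene is called at a Benjamini-Hochberg adjusted p below 0.05 over all genes tested. Within a lineage a p-value here measures the spread between mice. Between lineages it measures the spread between libraries without pairing, although 13 mice gave both lineages. Libraries held 340445 to 3130419 reads, so 1 read was worth 0.381 to 5.43 normalized counts. Depth differed by group: basal K8imTmG libraries had 340445 to 1365008 reads and parous K8iΔRank libraries of either lineage 1844364 to 3130419. Virgin K8iΔRank luminal libraries had 814455 to 1158036 reads, against 1862812 to 2422876 in virgin K8imTmG and 2214318 to 3130419 in parous K8iΔRank luminal libraries. The transcript Clec2d parted the libraries into 14 with 65.6 to 199 and 16 with 0.641 to 8.68 normalized counts, and in virgins of either lineage and in K8iΔRank luminal cells this split coincides with the groups compared. In virgins it coincides with lineage too, with basal libraries high in K8imTmG mice and luminal libraries high in K8iΔRank mice. The labels do not name what the split is. Rank (Tnfrsf11a) 3′ reads cannot show a deletion elsewhere in the gene and were no check of it, with 12.8 to 64.9 in parous K8imTmG and 27 to 41.1 in parous K8iΔRank luminal cells. Genotypes are those of the labels. RNA integrity is given only over all samples, and its part in any difference was not tested.

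All 8 keratins parted the lineages. For each basal keratin all 15 basal libraries lay above all 15 luminal ones, and for each luminal keratin all 15 luminal libraries lay above all 15 basal ones. Over the mean of the 4 groups of each lineage, the 4 basal keratins were called lower and the 4 luminal keratins called higher in luminal cells, where 55.7% of 11133 tested genes were called and 9.57% had no overlap between lineages. Because the members are known layer markers, this count checks the sort and is no finding about keratins.

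**Figure D1:**
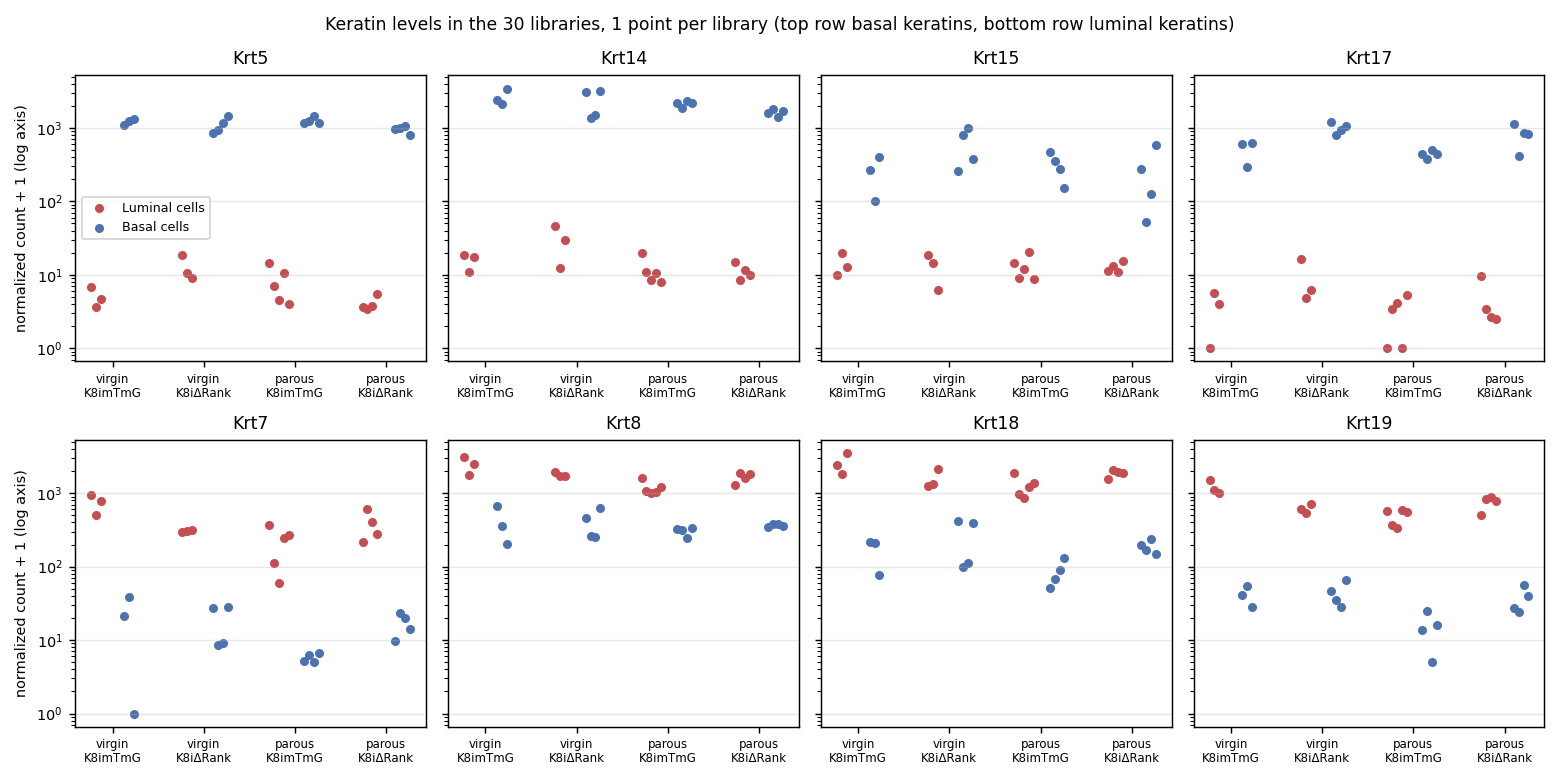
Normalized count plus 1 on a log axis for each keratin (panels), by stage and genotype (x axis), with 1 point per library, red for luminal and blue for basal cells. No red and blue ranges meet in any panel, and the gap is narrowest for Krt8, whose basal libraries reach 664 and whose luminal libraries start at 994.

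Krt14 was the most abundant basal keratin in basal cells, with a lowest, median and highest level of 1367, 2137 and 3418 over 15 libraries. Krt5, its type II partner, had 811, 1147 and 1463 and was the steadiest of the 8, with a within-group SD of 0.23 on the log2 scale that only 12.4% of 2873 genes of at least 100 normalized counts undercut. Krt17 had 289, 619 and 1207 and Krt15 51 to 979. Krt15 varied most, with a within-group SD of 1.08, higher than in 98.4% of those genes.

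The luminal keratins of luminal cells were led by Krt18 (lowest 857, median 1844, highest 3536) and Krt8 (994, 1704 and 3134). Krt19 had 330.5, 616 and 1501, and Krt7 had 59.1, 304 and 931. Krt7 varied most here, with a within-group SD of 0.76, above 93.1% of 2875 genes. 3′ counting gives 1 tag per transcript, so no value is divided by length, but capture of the end can differ between genes, and the order of levels holds for tags only.

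The log2 difference between lineages was −7.44 for Krt5 (SE 0.16, 95% interval −7.76 to −7.11, adjusted p = 1.33e-24), −7.38 for Krt17 (SE 0.28), −7.15 for Krt14 (SE 0.17) and −4.47 for Krt15 (SE 0.29). Krt5 and Krt17 were near the floor in luminal cells, so their order with Krt14 depends on the added 1: with 0.5 added Krt17 led at −7.70, and with 4 added Krt14 did at −6.86. Among luminal keratins Krt7 differed by 4.99 (SE 0.36), Krt19 by 4.60 (SE 0.19) and Krt18 by 3.55 (SE 0.21). Krt8 differed least, by 2.27 (SE 0.15, 95% interval 1.97 to 2.57, adjusted p = 7.07e-14), or 4.84-fold.

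The same 8 calls were made within each pair of groups. In virgin K8imTmG mice the differences ran from −7.96 for Krt5 to 6.27 for Krt7, where 36.2% of genes were called, and in virgin K8iΔRank mice from −6.95 for Krt17 to 4.30 for Krt7, where 35.9% were. In both virgin comparisons lineage and the Clec2d split cannot be told apart. In parous K8imTmG mice they ran from −7.61 for Krt14 to 5.19 for Krt19, where 30.7% were called. In parous K8iΔRank mice they ran from −7.89 for Krt5 to 4.45 for Krt7, where 37% were. With the mouse as a block, in the 2 to 13 mice that gave both lineages, all 8 stayed called in each comparison.

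Keratins of the opposite layer were not at 0, and they differed from each other in how much remained. In basal cells Krt8 stood at 20.8% of its luminal level and Krt18 at 9.49%, against 4.33% for Krt19 and 3.49% for Krt7. The 14 luminal markers that are not keratins, among them the transcription factor Elf5, the receptor Kit and the claudins, stood at 2.74% (Prlr) to 15% (Esr1) in basal cells, with a median of 3.94%. Krt8 was thus above all 14, Krt18 above 12, Krt19 above 9 and Krt7 above 3. In luminal cells Krt5 stood at 0.575% of its basal level, Krt17 at 0.592% and Krt14 at 0.735%, within the 0.469% (Id4) to 3.43% (Oxtr) of 10 other basal markers such as Acta2 and Myh11. Krt15 stood at 3.43%, at the top of that range. In bulk samples fewer cells of a type and less RNA per cell cannot be told apart, and carry-over between gates was not tested.

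**Figure D2:**
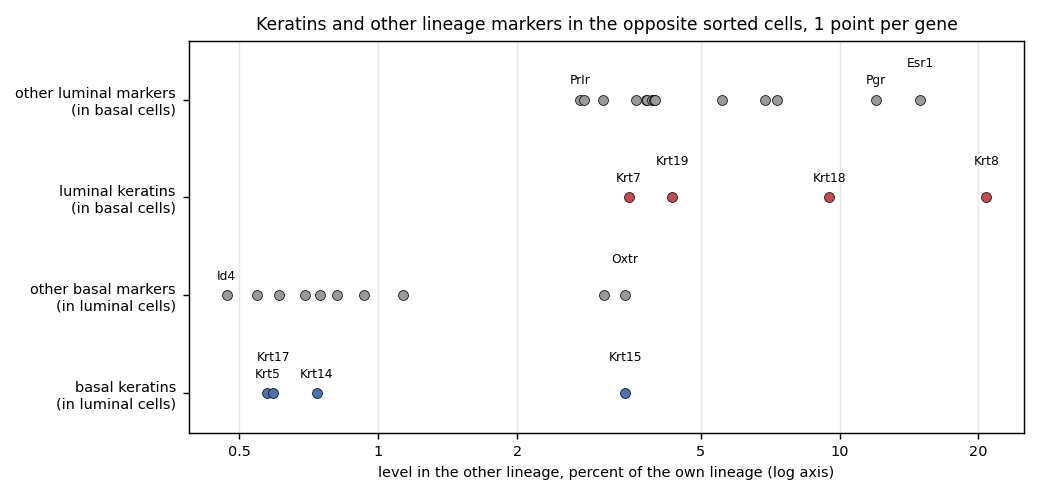
Level in the opposite sorted cells as a percent of the level in the gene's own lineage (log axis), with 1 point per gene and 1 row per gene list. Krt8 lies to the right of all 14 other luminal markers at 20.8%, and Krt15 lies at 3.43%, apart from the other 3 basal keratins at 0.575% to 0.735%.

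Krt8 in basal cells was present in every library, at 664, 351 and 201 in virgin K8imTmG, 455, 259.8, 253 and 621 in virgin K8iΔRank, 329, 313, 247 and 339 in parous K8imTmG and 341, 381, 383 and 355 in parous K8iΔRank. The 4 groups overlapped except that the parous K8iΔRank values all lay just above the parous K8imTmG ones. The ratio of Krt8 to its partner Krt18 was near 1 in luminal cells, with a mean of 1.00 ± 0.23 (SD, n = 15) and a range of 0.697 to 1.54. In basal cells it was 2.65 ± 1.37 (SD, n = 15) with a range of 1.08 to 6.54, highest in parous K8imTmG, where it was 4.16 ± 1.84 (SD, n = 4). The ratio of Krt5 to Krt14 in basal cells was 0.556 ± 0.134 (SD, n = 15).

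In luminal cells the 4 luminal keratins had their highest group mean in virgin K8imTmG and their lowest in parous K8imTmG, with both K8iΔRank groups between. Krt19, the type I chain without a tail domain, had 1501, 1113 and 1006 in virgin K8imTmG, 616, 542 and 715 in virgin K8iΔRank, 564, 362, 330.5, 582 and 554 in parous K8imTmG and 509, 836, 891 and 773 in parous K8iΔRank. The virgin controls did not overlap with any other group, while the 3 others overlapped in order of their means. Krt7 had 931, 502 and 782, then 298, 304 and 317, then 371, 111, 59.1, 243 and 270, and then 213, 603, 398 and 277 in the same order of groups. Its virgin controls lay above both the virgin K8iΔRank and the parous K8imTmG libraries.

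Krt8 had 3134, 1768 and 2465 in virgin K8imTmG, 1933, 1704 and 1723 in virgin K8iΔRank, 1596, 1077, 994, 1045 and 1211 in parous K8imTmG and 1288, 1902, 1623 and 1823 in parous K8iΔRank. Its virgin and parous controls did not overlap, but the virgin genotypes did. Krt18 had 2399.9, 1844 and 3536, then 1257, 1321 and 2152, then 1877, 979, 857, 1202 and 1369, and then 1535, 2098, 1939 and 1905 in that order. For Krt18 the single library of mouse 494 closed the gap between virgin and parous controls.

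**Figure D3:**
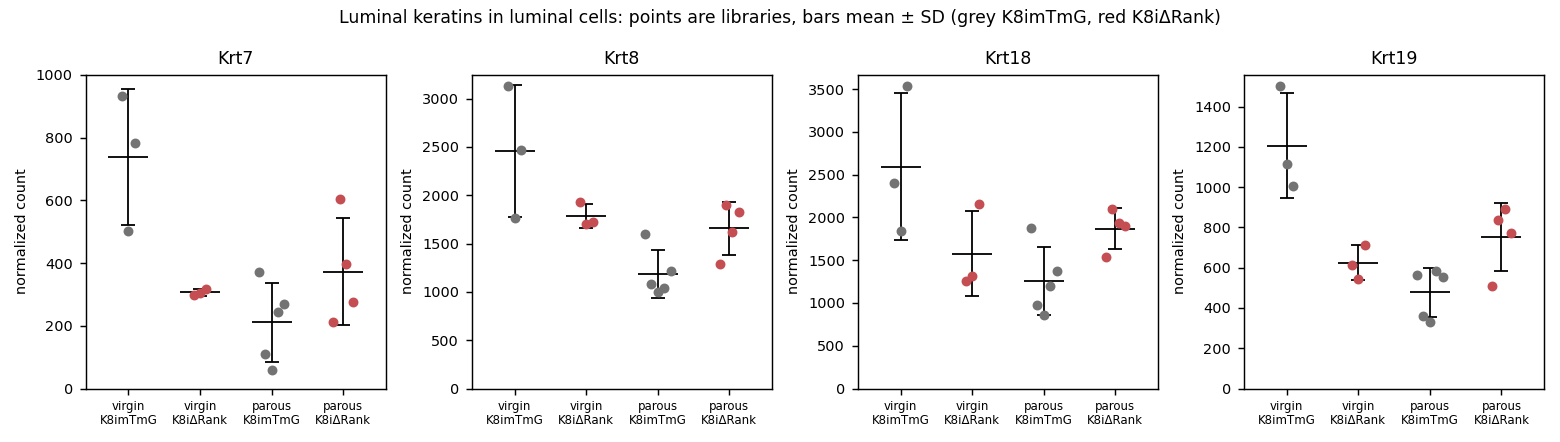
Normalized counts of the 4 luminal keratins in the 15 luminal libraries by stage and genotype, with 1 point per library and bars for the mean and SD (grey K8imTmG, red K8iΔRank). In each panel the virgin K8imTmG mean is highest (1206 for Krt19) and the parous K8imTmG mean lowest (479 for Krt19).

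Between parous and virgin controls Krt19 was lower by a log2 difference of −1.35 (SE 0.27, 95% interval −1.96 to −0.75, adjusted p = 0.0397) and was the 1 member called of 6 tested, where 2.2% of 10279 genes were called. The values of Krt7 (−2.03, SE 0.54, adjusted p = 0.08), Krt8 (−1.03, SE 0.27, adjusted p = 0.08) and Krt18 (−1.05, SE 0.33, adjusted p = 0.112) did not pass. Krt7, Krt8 and Krt19 did not overlap between these groups, as was true of 16.9% of genes. All 4 were called within the libraries of low Clec2d (3 virgin, 3 parous), with all 15 luminal libraries in the fit, or with DESeq2 on recovered reads, while edgeR called 1. The Krt19 call rests on single libraries: without any 1 of the 7 libraries other than that of parous mouse 494 no keratin was called, with adjusted p of 0.0638 to 0.122 for Krt19, and without mouse 494 all 4 were, with −1.42 for Krt19 (adjusted p = 0.0246). Other measures moved with parity in these libraries. The summed milk protein genes went from 263 to 697 in virgins to 4837 to 8822 in parous controls. The 14 other luminal markers, with none called by limma, had 7 above 0. An unadjusted p below 0.05 was found for 7, where the share over all genes was not worked out. The median difference of the 14 was 0.13, while the median over all genes was −0.01. Their sum, however, was lower on average with parity, at 10611 to 13056 in virgins and 4377 to 10956 in parous controls. The part of the milk protein genes and luminal markers in the keratin values was not tested.

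In K8iΔRank luminal cells parity left the luminal keratins with differences of −0.12 (Krt8, 95% interval −0.55 to 0.31) to 0.28 (Krt18, 95% interval −0.22 to 0.79). None of 6 members was called by limma, where 16% of 10249 genes were, and 1 had an unadjusted p below 0.05, where 33% of genes did. That one was Krt14, at 45.4, 11.5 and 29.1 in virgins and 13.7, 7.37, 10.6 and 8.94 in parous mice, a difference of −1.25 (SE 0.44, adjusted p = 0.0743) that DESeq2 and edgeR each called. No tested member was free of overlap, against 29.7% of genes. Virgin and parous K8iΔRank luminal libraries lie on opposite sides of the Clec2d split and do not overlap in depth. Parity, split and depth therefore cannot be told apart here.

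The parity differences of the 2 genotypes were then set against each other in 1 fit of the 15 luminal libraries. The interaction, parity difference in K8iΔRank minus that in K8imTmG, was 1.60 for Krt19 (SE 0.36, 95% interval 0.83 to 2.36, adjusted p = 0.0165), 2.20 for Krt7 (SE 0.69, adjusted p = 0.0469) and 1.33 for Krt18 (SE 0.42, adjusted p = 0.0462), all called. Krt8 had 0.91 (SE 0.34, adjusted p = 0.0775). So 3 of 6 tested members were called, all higher, where 12.9% of 10262 genes were called, and the 6 members had a median of 1.12 against 0.08 over all genes. Krt14 (−0.78) and Krt15 (0.24) were not called. Other markers moved with this term: 2 of 5 milk protein genes were called lower (median −2.70), as were 1 of 3 basal markers, Acta2 (−2.15), and 1 of 14 other luminal markers, Cldn7 (−2.33), while Cldn4 (1.30) was called higher. Their part in the keratin values was not tested. Krt19 stayed called without any 1 library, at adjusted p of 0.0137 to 0.041. Krt7 and Krt18 hung on single libraries: Krt19 was the only member called without virgin K8imTmG mouse 531 or 538, virgin K8iΔRank mouse 821 or 822, parous K8imTmG mouse 532 or 557, or parous K8iΔRank mouse 794, 798 or 830. With the Clec2d side as a covariate none was called, at 2.30 for Krt19 (adjusted p = 0.0785), and only 5 genes were called in all. The side term of that fit rests on parous K8imTmG mice alone (2 high, 3 low), since each other luminal group lies on 1 side.

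The genotypes were compared at each stage. In virgin luminal cells Krt7 differed by −1.22 (SE 0.27, adjusted p = 0.063) and Krt19 by −0.94 (SE 0.25, adjusted p = 0.0814), each without overlap, and Krt18 and Krt8 by −0.71 and −0.42 with overlap. None of 6 tested members was called by limma, where 0.984% of 10066 genes were called. For 2 the unadjusted p was below 0.05 (22.1% of genes) and 2 had no overlap (28.3% of genes). DESeq2 called Krt7 and Krt19, and edgeR none. Virgin K8imTmG and K8iΔRank luminal libraries lie on opposite sides of the Clec2d split and do not overlap in depth. The split, depth and the genotype cannot be told apart.

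In parous luminal cells the 4 luminal keratins had differences in the other direction, 0.98 for Krt7 (SE 0.51), 0.49 for Krt8 (SE 0.21), 0.62 for Krt18 (SE 0.24) and 0.66 for Krt19 (SE 0.24, 95% interval 0.12 to 1.20, adjusted p = 0.18). All 6 tested members lay above 0, with a median of 0.55 against 0.04 over all genes, but none was called by limma, DESeq2 or edgeR, where limma called 0.0991% of 10090 genes. Unadjusted p was below 0.05 for 3, as for 19.9% of genes, and none was free of overlap, against 9.73% of genes. This comparison can be made within the libraries of low Clec2d (3 against 4), where again no member was called.

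The basal keratins of luminal cells were low throughout. Krt5 had 5.77, 2.62 and 3.68 in virgin K8imTmG, 17.7, 9.61 and 7.93 in virgin K8iΔRank, 13.4, 6.00, 3.53, 9.59 and 3.03 in parous K8imTmG and 2.66, 2.46, 2.79 and 4.47 in parous K8iΔRank, from 3 to 15 reads a library. The virgin K8iΔRank libraries lay above the virgin controls and above the parous K8iΔRank ones. Krt17 had no read in 3 of 15 luminal libraries and 15.1 in the highest, mouse 821. Neither gene passed the filter on low values in the comparisons within luminal cells, and so neither was tested there.

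Krt14 in virgin K8iΔRank luminal cells had 45.4, 11.5 and 29.1, against 17.3, 9.96 and 16.2 in virgin controls, with overlap and a difference of 0.78 (SE 0.50, adjusted p = 0.383). Krt15 spanned 5.28 to 19.2 over the 15 luminal libraries, and its 4 group means lay between 11.7 and 13.2. Other basal markers moved beside Krt5 in the virgin K8iΔRank libraries: the sum of all 10 ranged from 90.4 to 279 there, from 59.6 to 79.5 in virgin controls and from 56 to 121 in parous libraries. Acta2, smooth muscle actin, was at 28.8 to 110 there and at 17.8 to 22.4 in virgin controls. The part of basal cells in these Krt5 and Krt14 values was not tested.

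In basal cells neither Krt5 nor Krt14 passed the test in any comparison of genotype or stage. Krt5 had 1079, 1244 and 1309.6 in virgin K8imTmG, 845, 936, 1149 and 1463 in virgin K8iΔRank, 1147, 1244, 1461 and 1154 in parous K8imTmG and 975, 993, 1043 and 811 in parous K8iΔRank. All 4 parous K8iΔRank libraries lay below all 4 parous controls, by −0.39 (SE 0.19, 95% interval −0.80 to 0.02, adjusted p = 0.245). Krt14 parted the same groups, with 2187, 1883, 2305 and 2150.1 in parous K8imTmG and 1592, 1796, 1423 and 1718 in parous K8iΔRank, a difference of −0.39 (SE 0.20, adjusted p = 0.263). Each difference changed sign in 1 of 18 alternatives, reaching 0.02 for Krt5 and 0.25 for Krt14. Depth parted these groups too, at 450064 to 1365008 reads in parous K8imTmG and 1844364 to 2996649 in parous K8iΔRank. Its part was not tested. The summed 10 other basal markers parted these groups as well, at 12961 to 15045 in parous K8imTmG and 8588 to 10091 in parous K8iΔRank, and 1 of the 10 was called lower, the inhibitor of DNA binding Id4 (−1.60, SE 0.25, adjusted p = 0.035).

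Krt17 in basal cells had 600.4, 289 and 619 in virgin K8imTmG, 1207, 787, 919.7 and 1043 in virgin K8iΔRank, 446, 379.8, 506 and 440.3 in parous K8imTmG and 1111, 417, 860.04 and 821 in parous K8iΔRank. At both stages the K8iΔRank mean was higher, without overlap in virgins and with only mouse 794 inside the control range in parous mice. The genotype difference was 1.04 in virgins (SE 0.29, 95% interval 0.38 to 1.69, adjusted p = 0.0541) and 0.78 in parous mice (SE 0.27, 95% interval 0.19 to 1.36, adjusted p = 0.128), neither called. The genotype by stage term was −0.26 (95% interval −1.15 to 0.63). Without mouse 794 the parous difference was called, at 1.06 (adjusted p = 0.0123), and without mouse 787 it was 0.59 (adjusted p = 0.335). Within the Clec2d-high libraries (4 against 2) it was 0.41 (adjusted p = 0.713). DESeq2 called both stages and edgeR neither. Virgin K8imTmG and K8iΔRank basal libraries lie on opposite sides of the Clec2d split as well. Their depth does not overlap, at 340445 to 1172427 and 1200781 to 2104379 reads. Split, depth and genotype cannot be told apart there.

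Krt15 in basal cells had 267, 99.2 and 402 in virgin K8imTmG, 257, 796, 979 and 374 in virgin K8iΔRank, 465, 356, 279 and 152 in parous K8imTmG and 271, 51, 124 and 590.2 in parous K8iΔRank. Every pair of groups overlapped. Its genotype difference in virgins was 1.24 (SE 0.55, adjusted p = 0.162) and its parity difference in K8iΔRank mice −1.54 (SE 0.68, adjusted p = 0.497). Neither size was steady, at 0.67 to 1.99 and −2.21 to −0.95 over the alternatives, and with array quality weights both were called.

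The 4 virgin K8iΔRank basal libraries fell into 2 pairs for several keratins. Mice 820 and 825 had 3069 and 3204 for Krt14, 421 and 394 for Krt18 and 26.5 and 26.8 for Krt7, while mice 821 and 822 had 1367 and 1492, 97.4 and 111, and 7.44 and 8.13. Krt15 ran the other way, with 257 and 374 against 796 and 979. Depth and other luminal markers parted the same pairs, with 1200781 and 1323739 reads and luminal marker sums of 458 and 513 in mice 820 and 825, against 2104379 and 1934538 reads and sums of 232 and 204 in mice 821 and 822. Their part in the keratin values was not tested, and no label separates the pairs.

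In parous basal cells the luminal keratins were higher on average in K8iΔRank than in K8imTmG mice. Krt18 had 50.2, 66.9, 87.6 and 129.7 in parous K8imTmG and 196, 168, 238 and 146 in parous K8iΔRank, without overlap and with a difference of 1.22 (SE 0.28, 95% interval 0.61 to 1.82, adjusted p = 0.0538). Krt19 had 12.6, 24.1, 3.98 and 14.8 against 26.2, 23.1, 55.5 and 38.3, with mouse 794 inside the control range and a difference of 1.44 (SE 0.47, adjusted p = 0.11). Krt7 had 4.19, 5.35, 3.98 and 5.69, from 1 to 5 reads, against 8.58, 22.3, 18.9 and 12.9, from 20 to 43 reads, with a difference of 1.46 (SE 0.45, adjusted p = 0.102) that at such counts depends on the added 1.

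None of the 8 members was called by limma between the parous basal groups, where 0.906% of 10592 genes were. Unadjusted p was below 0.05 for 4, against 22.6% of genes, and 5 had no overlap, against 12% of genes. DESeq2 called 2 members, and edgeR none. With the Clec2d-high libraries alone (4 against 2) none was called. Krt18 turned on single libraries: limma called it without parous K8imTmG mouse 558 (adjusted p = 0.0308) or parous K8iΔRank mouse 794 (adjusted p = 0.0268), and for the other 6 libraries it did not. Other luminal markers moved beside it: 12 of 13 tested lay above 0 with a median of 0.67, 1 was called (Cldn4, a tight junction claudin), and the sum of the 14 was 289 to 497 in K8iΔRank and 182 to 396 in K8imTmG. Krt8 had a smaller difference, 0.26 (SE 0.18, adjusted p = 0.398). Depth was 450064 to 1365008 reads in parous K8imTmG and 1844364 to 2996649 in parous K8iΔRank basal libraries. The part of depth or of luminal cells in the sort was not tested.

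In virgin basal cells the luminal keratins of the 2 genotypes overlapped, with differences of 0.03 for Krt8 to 0.46 for Krt18 and wide intervals, −0.93 to 0.99 for Krt8. Krt7 has no settled direction here: its log2 difference of 0.74 (95% interval −1.76 to 3.24) went against its group means of 17.2 in K8iΔRank and 19.1 in K8imTmG and changed sign in 4 of 15 alternatives, down to −0.86. Krt7 was not seen in the shallowest library, virgin K8imTmG mouse 568, where a count of 0 allows up to 16.3 normalized counts. None of 8 members was called by limma or edgeR, where 8.99% of 10616 genes were called by limma, and DESeq2 called Krt17. Unadjusted p was below 0.05 for Krt15 and Krt17, against 29.3% of genes, and Krt17 alone had no overlap, against 28.2% of genes.

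Parity moved no basal-cell keratin past the test. In K8imTmG basal cells Krt19 had 40.2, 53.7 and 27.2 in virgins and 12.6, 24.1, 3.98 and 14.8 in parous mice, without overlap and with a difference of −1.64 (SE 0.54, adjusted p = 0.405), and Krt18 differed by −0.92 (SE 0.39, adjusted p = 0.494). No member and no gene was called (0% of 10538), 2 members had an unadjusted p below 0.05 (9.2% of genes), and 1 had no overlap (9.35% of genes). In K8iΔRank basal cells no member and no gene was called either (0% of 10525), 1 member, Krt15, had an unadjusted p below 0.05 (9.84% of genes), and every member overlapped, where 6.1% of genes did not. DESeq2 and edgeR called no member in either. The genotype by stage term of basal cells, too, gave no call among 10607 genes (0%), with unadjusted p below 0.05 for Krt15 (−1.94) and Krt19 (1.38), against 10.2% of genes, and DESeq2 and edgeR called no member.

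**Figure D4:**
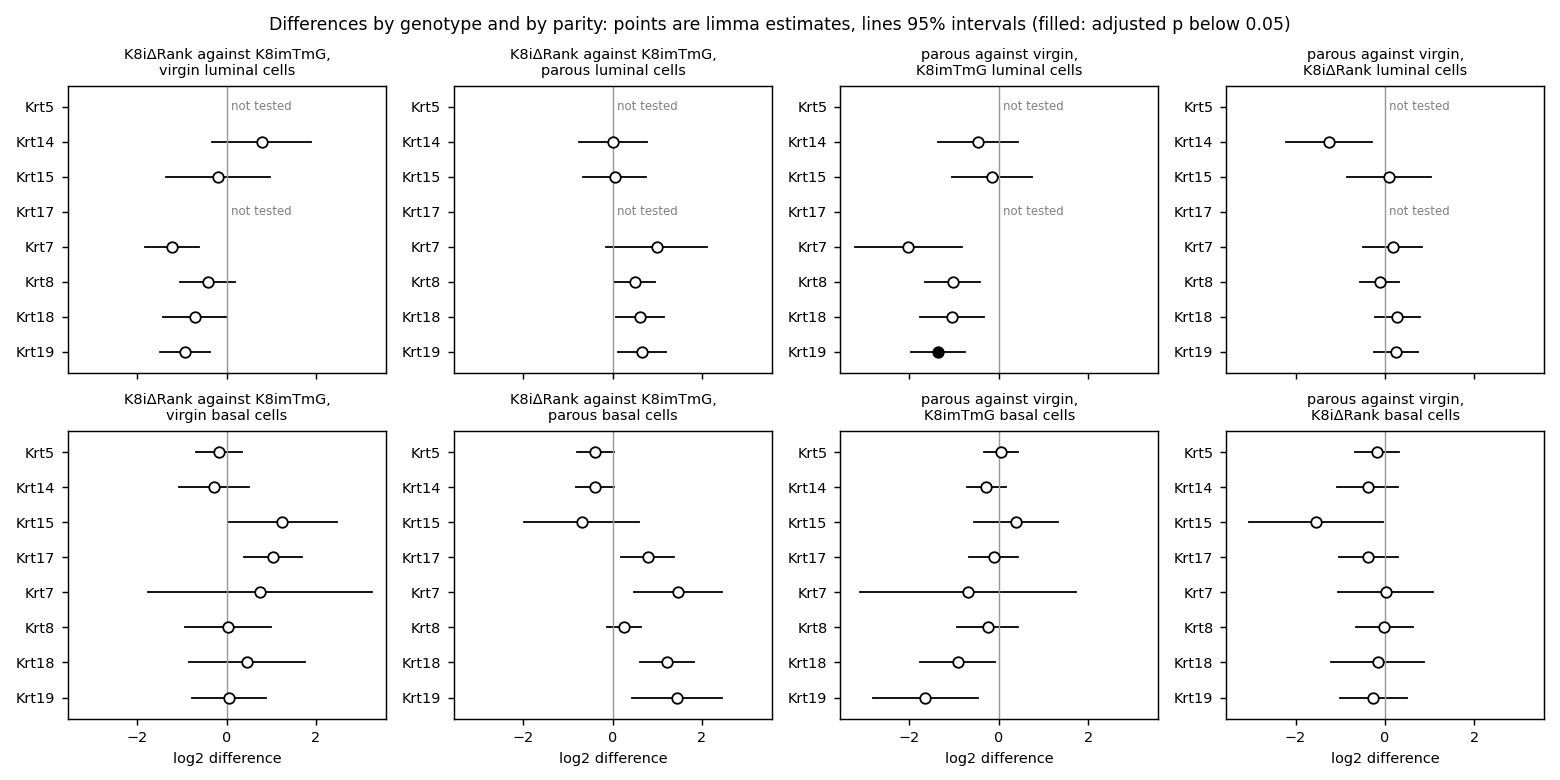
Log2 differences of the 8 keratins with 95% intervals, in luminal cells (top row) and basal cells (bottom row), for the genotype comparison in virgins and in parous mice and for the parity comparison in each genotype. The 1 filled point is Krt19 between parous and virgin K8imTmG luminal cells at −1.35, and the luminal keratins lie left of 0 in the top panels for genotype in virgins and parity in K8imTmG and right of 0 in that for genotype in parous mice.

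The luminal keratins also varied together within groups. Over 15 luminal libraries, after group means were subtracted, Pearson's r was 0.82 between Krt7 and Krt19, 0.73 between Krt7 and Krt18, 0.70 between Krt7 and Krt8, 0.61 between Krt8 and either Krt18 or Krt19, and 0.56 between Krt18 and Krt19. In parous K8imTmG mice 494 and 558 all 4 keratins lay above the group mean and in mice 532 and 534 all 4 lay below. In basal libraries r was 0.76 between Krt8 and Krt18, 0.75 between Krt7 and Krt8 and 0.72 between Krt7 and Krt18, whereas Krt5 with Krt14 gave 0.20 and Krt15 with Krt18 −0.64. These libraries share depth: r with log2 reads was −0.55 for Krt7, −0.50 for Krt19, −0.39 for Krt18 and −0.23 for Krt8 in luminal cells, and −0.48 to 0.36 for the 8 keratins in basal cells.

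The genes whose pattern was most like each keratin, by the same r, were picked from 9827 genes in luminal and 10111 in basal cells. The highest r of so many genes over 15 libraries is high through the picking alone, so the lists are a description and were not tested. Depth was not taken out. In luminal cells they were Rhbdd1 (0.97), Dap and Gm43085 for Krt7, Faim2 (0.82), Sys1 and Acadvl for Krt8, Tgoln1 (0.92), Lratd1 and Nupr1 for Krt18, Dmbt1 (0.94), Fgfr1 and Cxcl15 for Krt19, Dcun1d4 (0.94), AC168314.1 and Tent2 for Krt14, and Rhbdd3 (0.86), 1810024B03Rik and Rps12-ps5 for Krt15. In basal cells they were Ptpn3 (0.85), Use1 and Impdh2 for Krt5, Gabarapl1 (0.93), Rpl7 and Rps14 for Krt14, and Ranbp2 (0.92), Rhoq and Iqgap1 for Krt17. Krt15 in basal cells went with Nipa2 (0.95), the collagen chain Col4a5 and another keratin, Krt23 (0.90). The luminal keratins of basal cells went with Cldn4 (0.91), Maff and Hoxb4 for Krt8, Gsk3a (0.93), Smtn and Il6st for Krt18, Zc3h6 (0.95), Apol8 and Tlr2 for Krt7, and Gsta4 (0.88), Spice1 and Adcy3 for Krt19.

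Of 17 other keratin genes looked for, 3 were in the table. Krt23, a type I keratin, was lower in luminal than in basal cells, at a mean of 20.6 against 132 (log2 difference −2.80, SE 0.24). Krt10, of suprabasal epidermis, was lower too, at 10.2 against 30.2 (−1.27, SE 0.41), and Krt80, a type II keratin, was higher at 16.3 against 7.19 (1.07, SE 0.30). Krt80 was called for genotype by stage in luminal cells, at 2.71 (SE 0.69, adjusted p = 0.0244), in the direction of Krt7, Krt18 and Krt19. That fit did not hold the Clec2d side, which parts the genotypes in virgin luminal cells. None of the 3 was called by limma between genotypes or with parity in cells of either lineage, although between genotypes in virgin luminal cells all 3 had an unadjusted p below 0.05, as did 22.1% of all genes. With parity 2 of 3 had one in K8iΔRank luminal cells (33% of all genes). In K8imTmG luminal cells 1 of 3 had one, where the share over all genes was not worked out. Between genotypes in parous luminal cells 1 of 2 had one (19.9%). In basal cells none of the 3 had one in any of these comparisons.

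Keratin filaments end on desmosomes and hemidesmosomes, and 14 of 17 listed genes of these structures were in the table. Between lineages 5 were called higher and 7 lower in luminal cells, where 55.7% of all genes were called in either direction. Among the higher were Pkp2 (4.62, SE 0.31), a desmosomal plakophilin, and Evpl (3.75, SE 0.29), a plakin of the desmosome, and among the lower Col17a1 (−6.61, SE 0.22), the transmembrane collagen of hemidesmosomes, and Itga6 (−1.29, SE 0.09), which is CD49f and was part of the sort. Between parous and virgin K8imTmG luminal cells 2 of 13 tested were called lower, Dsp (desmoplakin, −1.93, SE 0.43) and Plec (plectin, −1.28, SE 0.22), both of which link keratins to junctions, where 2.2% of all genes were called. In K8iΔRank luminal cells 3 were higher with parity, among them Pkp3 (0.99, SE 0.20) and Ppl (0.81, SE 0.24), and 1 lower, Jup (−0.77, SE 0.22), where 16% of all genes were called. There parity, depth and the Clec2d split cannot be told apart.

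For genotype by stage in luminal cells 5 of 13 were called higher, none lower and 12 lay above 0, where 12.9% of all genes were called, with a median of 1.09 against 0.08 over all genes. Plec (1.79, SE 0.30, adjusted p = 0.00765) and Pkp3 (1.56, SE 0.38, adjusted p = 0.0212) had the lowest adjusted p. With the Clec2d side as a covariate only 5 genes of the whole table were called for this term. Between genotypes 1 was called in virgin luminal cells, Evpl (−1.93, SE 0.38), against 0.984% of all genes, and 1 in virgin basal cells, Plec (0.79, SE 0.20), against 8.99%. In virgins of either lineage genotype, depth and the Clec2d split cannot be told apart. Limma called none between genotypes in parous luminal cells, where 6 of 13 had an unadjusted p below 0.05 (19.9% of all genes), or in parous basal cells, where 5 of 12 had (22.6%). It also called none with parity in K8imTmG basal cells (1 of 12 below 0.05, 9.2% of all genes), with parity in K8iΔRank basal cells (0 of 12, 9.84%) or for genotype by stage in basal cells (1 of 12, 10.2%).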

How the data were processed

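Sorted luminal and basal cells of 17 mice were profiled in 30 QuantSeq 3′ libraries with unique molecular identifiers. Per the study's methods, 86-base reads were trimmed with BBDuk, their 6-base identifiers extracted with UMI-tools, aligned to GRCm39 with Bowtie2, deduplicated with UMI-tools after alignment and counted on Gencode genes. The deposited signal values are counts that the authors divided by DESeq2 size factors, kept for genes above 10 in at least 25% of samples. Whole reads were recovered for 100% of values within 0.001 reads.

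Values were tested as log2(normalized count + 1) with limma 3.58.1 (trend, Benjamini-Hochberg over all genes tested, call below 0.05), in the groups compared, after a filter of more than 10 in at least 25% of their libraries. DESeq2 1.42.0 and edgeR 4.0.16 on recovered reads, other scalings, filters and pseudocounts, quality weights, the Clec2d side (split at 20 normalized counts) and leaving out each library were alternatives. Named genes are the 8 keratins, the 3 genes most alike per keratin and lineage by Pearson's r among genes with a mean of at least 10, and list genes called with the lowest adjusted p. The members and lists were chosen with earlier results of these data known. The mouse number pairs lineages in 13 mice (r of deviations −0.238 to 0.341, over 0.1 in 6), taken from the bracketed number in the labels. Floors of 3 reads and counts cover counting error only.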

Additional observations from a re-analysis of the deposited data

Results flagged for a closer look

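In luminal cells the parity difference of 3 keratins differed between genotypes by the test of the difference itself, by 2.20 for Krt7, 1.33 for Krt18 and 1.60 for Krt19 on the log2 scale. In each the value was below 0 in K8imTmG mice, where only Krt19 was called. In K8iΔRank mice the values were small and not called, at 0.17 for Krt7, 0.28 for Krt18 and 0.25 for Krt19, so an opposite direction is not shown. Krt7 changed sign there in 1 of 16 alternatives. Of all genes 12.9% were called for the genotype by stage term. With the Clec2d side as a covariate no keratin was called, though the Krt19 difference was larger, at 2.30. Of the luminal groups only parous K8imTmG held both sides (2 high, 3 low), so the side term of that fit rests on it alone.

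A single library stood apart from the rest of its group in 3 of 40 sets, each being 1 keratin in 1 group of 4 or 5 libraries. Chance gives about 1 in 20 sets, but the sets share libraries and are not independent. All 3 were basal keratins in luminal cells at few reads. Krt5 in parous K8iΔRank mouse 830 was 4.47 against 2.46 to 2.79, Krt14 in parous K8imTmG mouse 494 was 18.5 against 6.92 to 9.997, and Krt17 in parous K8iΔRank mouse 787 was 8.75 against 1.49 to 2.46.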

How the results depend on the processing

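All 8 keratins were called between lineages in each of the 5 lineage comparisons under every alternative run, with the mouse as a replicate block (8) and with each library left out (8 to 8). Within lineages the counts of keratins called were less steady. Between genotypes in virgin luminal cells (0 in the report) 1 was called at a mean of at least 50 or after quantile normalization, 3 with array quality weights and 2 with DESeq2, and in parous luminal cells (0) 4 with weights. Between genotypes in virgin basal cells (0) 1 was called with a pseudocount of 4, a mean of at least 50, quantile normalization, DESeq2 or all 15 libraries of the lineage, and 2 with weights. In parous basal cells (0) it was 1 with a pseudocount of 4 or a mean of at least 50, 4 with weights and 2 with DESeq2. For parity in K8imTmG luminal cells (1) it was 0 without a filter on low values, where Krt19 had an adjusted p of 0.0501, 3 after quantile normalization, 5 with weights, and 4 with DESeq2, all 15 libraries or low-Clec2d libraries alone. For parity in K8iΔRank luminal cells (0) it was 1 without a filter, after quantile normalization, with weights, DESeq2 or edgeR, and in K8iΔRank basal cells (0) 1 with weights. For genotype by stage in luminal cells (3) it was 1 with edgeR and 0 with the Clec2d side as a covariate. The causes were not tested.

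With each library left out in turn the count ran from 0 to 0 between genotypes in virgin and in parous luminal cells, 0 to 1 in virgin basal cells (1 without mouse 821) and 0 to 2 in parous basal cells. It ran from 0 to 4 for parity in K8imTmG luminal cells, 0 to 1 in K8iΔRank luminal cells (1 without mouse 822) and 0 to 0 in basal cells of either genotype, and from 1 to 4 for genotype by stage in luminal cells and 0 to 0 in basal cells. Of the 65 keratin differences with an unadjusted p below 0.05 none turned in direction under any alternative run. They were picked by that p and include all keratin differences between lineages, so the count is a weak check of those within lineages. Among the 45 differences with an unadjusted p of 0.05 or more, the sign turned in 33 of 405 fits other than leave-one-out. It also turned in 45 of 392 leave-one-out fits of these differences. A comparison within 1 side of the Clec2d split was not run for genotype in virgins or parity in K8iΔRank luminal cells, whose groups lie on opposite sides, nor for parity in K8imTmG basal cells, which lie on 1 side. Shallow basal K8imTmG libraries limit Krt7 and Krt19, at 1 to 13 reads in parous mice.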
